A study of Mus musculus with 6 samples.

Results

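The genes described here are the TGF-β ligands Tgfb1, Tgfb2 and Tgfb3, the latency proteins Lrrc32, Ltbp1, Ltbp2 and Ltbp3, and the signal carriers Smad3 and Smad7, measured by RNA-Seq in mouse embryonic cardiomyocytes after knockdown of DNMT1. They are 9 of the 43629 genes in the count files. All 9 were among the 15470 genes that passed the filter on low counts. The genes were chosen by name, as a set, with results of the same comparison already known. Their differences between treatments are therefore given as a description and without a p-value.

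The cells came from ventricles of CD-1 mice at embryonic day 13.5. Ventricles of a litter were pooled and digested, and the cells left floating after attachment of the fast-adhering ones were kept. After 48 h of culture they were transfected with 12 nM of a pool of 4 siRNAs against DNMT1, the maintenance DNA methyltransferase, or with 12 nM of the AllStars negative control siRNA. RNA was taken 72 h later from cells sorted with magnetic beads for VCAM1, a surface protein used here to enrich cardiomyocytes. There were 3 cultures per treatment. Both groups went through transfection, culture and sorting, and no untransfected group was analysed here. The labels do not say which litters gave which cultures, so the spread between cultures may be partly technical.

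TGF-β is made as a long precursor and secreted in an inactive form, held by its own propeptide. The LTBP proteins tie this latent complex to the extracellular matrix, whereas GARP, the product of Lrrc32, holds it on the cell surface. Once released, often by integrins, the ligand binds a pair of receptor kinases that phosphorylate SMAD2 and SMAD3, and the inhibitory SMADs, SMAD6 and SMAD7, limit the signal. In the embryonic heart the pathway is best known for the formation of the cushions that become valves, and later for matrix production by fibroblasts.

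Since DNMT1 copies methylation at CpG dinucleotides, the promoter sequences of 2 ligand genes are shown. Tgfb1 and Tgfb2 were the ligand genes for which the knockdown cultures lay clearly below and clearly above the controls. The windows are from RefSeq (GRCm38.p6), hold 250 bases before and 50 bases from the start of the gene, and are written 5′ to 3′ on the strand of the gene. Capitals mark each CG, which reads the same on both strands. The Tgfb1 window is chr7:25686752-25687051 on the plus strand, and the Tgfb2 window is chr1:186705940-186706239 on the minus strand.
Tgfb1: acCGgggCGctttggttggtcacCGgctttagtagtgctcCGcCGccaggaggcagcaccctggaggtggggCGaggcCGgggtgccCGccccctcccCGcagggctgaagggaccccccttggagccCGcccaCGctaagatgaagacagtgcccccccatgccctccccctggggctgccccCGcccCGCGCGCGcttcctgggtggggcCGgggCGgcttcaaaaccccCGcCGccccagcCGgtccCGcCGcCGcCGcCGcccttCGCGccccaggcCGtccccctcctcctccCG
Tgfb2: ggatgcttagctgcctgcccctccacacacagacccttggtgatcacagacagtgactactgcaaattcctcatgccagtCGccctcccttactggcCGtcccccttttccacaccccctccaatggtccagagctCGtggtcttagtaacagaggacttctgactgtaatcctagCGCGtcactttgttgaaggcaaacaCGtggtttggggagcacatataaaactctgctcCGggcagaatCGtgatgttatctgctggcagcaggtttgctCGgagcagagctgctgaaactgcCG

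The Tgfb1 window held 30 CpGs with a GC content of 77.0%, and 11.7% of the 32851 windows in the table held as many or more. The Tgfb2 window held 10 CpGs with a GC content of 54.3%, and 43.5% of windows held as many. The median window held 7, and 94.6% of windows held at least one. Of the other genes, 25 CpGs were found for Smad3, 20 for Ltbp2, 17 and 7 for the 2 starts of Ltbp1, and 3 for Ltbp3. Thus 6 of the 9 genes matched a window, and Lrrc32, Tgfb3 and Smad7 did not. These are counts of letters, and methylation was not measured in the files used here.

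The knockdown was checked first. The normalized count of Dnmt1, which is the read count scaled to a common library size, was 3028 ± 367.2 in the controls and 741.23 ± 65.79 after DNMT1 siRNA (SD, n = 3), or 24.5% of the control (adjusted p = 0.000192, edgeR quasi-likelihood test with Benjamini-Hochberg adjustment). A treatment tag of the knockdown samples names DNMT3a siRNA, while their titles name DNMT1. Dnmt3a stood at 118% of the control (adjusted p = 0.0919, same test). The titles were followed.

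The libraries differed in ways that accompany every comparison below. Gene counts ranged from 27852412 to 35896018 per culture with negative siRNA and from 13739561 to 16186310 with DNMT1 siRNA. Reads outside annotated exons made up 14.6% to 17.511% with negative siRNA and 24.405% to 31.952% with DNMT1 siRNA. Negative siRNA replicate 2 was the highest of its group for 38.1% of all tested genes and for 5 of the 9 genes. Values without that culture are given where they changed a named fold change by more than 1.5 times, ended a call or turned a direction. They are also given for Lrrc32 and Tgfb3. Genes named only as cell type markers are not covered by this rule.

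Markers of several cell types also moved with the treatment. On a per-length scale (FPKM, computed here from the counts), the 10 cardiomyocyte markers summed to between 490.6 and 682.1 with negative siRNA and to between 1223 and 1580 with DNMT1 siRNA, and 8 rose (past both limits given below). Over all tested genes, 4.26% rose and 2.23% fell past those limits. The 9 fibroblast markers summed to between 3904 and 5964 with negative siRNA and to between 2855 and 2999 with DNMT1 siRNA, and 4 fell. Col1a1 and Col1a2 alone made up 93.74% to 95.45% of that sum. The other 7 fibroblast markers summed to between 209.6 and 271.4 in the controls and to between 174.9 and 187.7 after DNMT1 siRNA, less than the cardiomyocyte markers in the same cultures. Of these 7, Dcn and Dpt fell past both limits. Pdgfra, Lum and Cthrc1 were lower without passing them, at log2 fold changes of -0.4, -0.42 and -0.74. Tcf21 stood at 0.01 and Mfap5, which had low counts, at 0.32. Cthrc1 was highest in negative siRNA replicate 2, at 3370.3 normalized counts against 1646.8 and 877.2 in the other controls. Over the 11 other fits described at the end, its log2 fold change lay between -1.09 and -0.1, and that of Dpt between -1.75 and -0.87. The epicardial sum was 630.2 to 746.7 and then 726 to 761.2, so that markers of other cell types were measured at appreciable levels in cells labelled cardiomyocyte. The endothelial sum was 16.76 to 27.04 and then 37.23 to 40.23, with 3 of 9 tested markers higher. A large part of that rise was Npr3 alone, with means of 1.635 and 10.95 FPKM. Tek was lower (log2 fold change -0.35), and the other tested markers stood between 0.2 (Esam) and 1.38 (Emcn). The macrophage sum was 9.409 to 27.37 and then 8.032 to 12, with 1 of 9 tested markers lower (Lyz2). The median log2 fold change of the tested macrophage markers was -0.965, from -1.97 for C1qb to 0.18 for Cd68. The sum of negative siRNA replicate 1, 9.409, lay inside the range with DNMT1 siRNA. The smooth muscle and pericyte sum was 2487 to 3719 and then 2154 to 2241, with 1 of 9 tested markers lower. Most of it came from Acta2 (means of 1692 and 1192 FPKM) and Tagln (1083 and 802.8 FPKM), which are also on the target list below. Of the other tested markers, Myh11, Cnn1 and Pdgfrb stood at log2 fold changes of -1.49, -1.03 and -0.62. Rgs5, Abcc9, Mcam and Cspg4 stood at 1.1, 0.76, 0.48 and 0.04. The marker past both limits was Pdgfrb. Myh11 had 680.4 normalized counts in negative siRNA replicate 2, against 119.6 and 178.9 in the other controls. Cnn1 had 5324.6 there, against 1767.6 and 2215.5. Over the 11 other fits their log2 fold changes came as close to the control as -0.36 and -0.39. Markers of megakaryocytes and platelets, which carry GARP, summed to at most 1.895 in any culture, and Pf4 had at most 3.1 normalized counts. Vcam1 itself was 6445.8 ± 999.5 and 5389.1 ± 106.1 (SD, n = 3; adjusted p = 0.148, edgeR quasi-likelihood test). The part of these shifts in the results below was not tested, and in a bulk sample fewer cells of a type and less RNA per cell cannot be told apart.

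Lrrc32 showed the largest difference of the 9 genes. Lrrc32 (ENSMUSG00000090958, chr7:98489283-98502181, GRCm38, plus strand) had normalized counts of 836.2, 2144.6 and 1323.5 with negative siRNA and of 169.0, 163.3 and 229.0 with DNMT1 siRNA. The groups did not overlap, and the lowest control culture was 3.65 times the highest knockdown culture. The means were 1434.8 ± 661.2 and 187.06 ± 36.41 (SD, n = 3), a log2 fold change of -2.94 (SE 0.34), or 7.69-fold lower with DNMT1 siRNA. The raw counts behind these values were 1433, 3111 and 1702 against 126, 112 and 140, so that all 6 were well above the filter. The control cultures were themselves spread over a 2.56-fold range, with replicate 2 the highest. Without replicate 2 the log2 fold change was -2.53, and over 11 other fits it lay between -3.22 and -2.53.

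**Figure D1:**
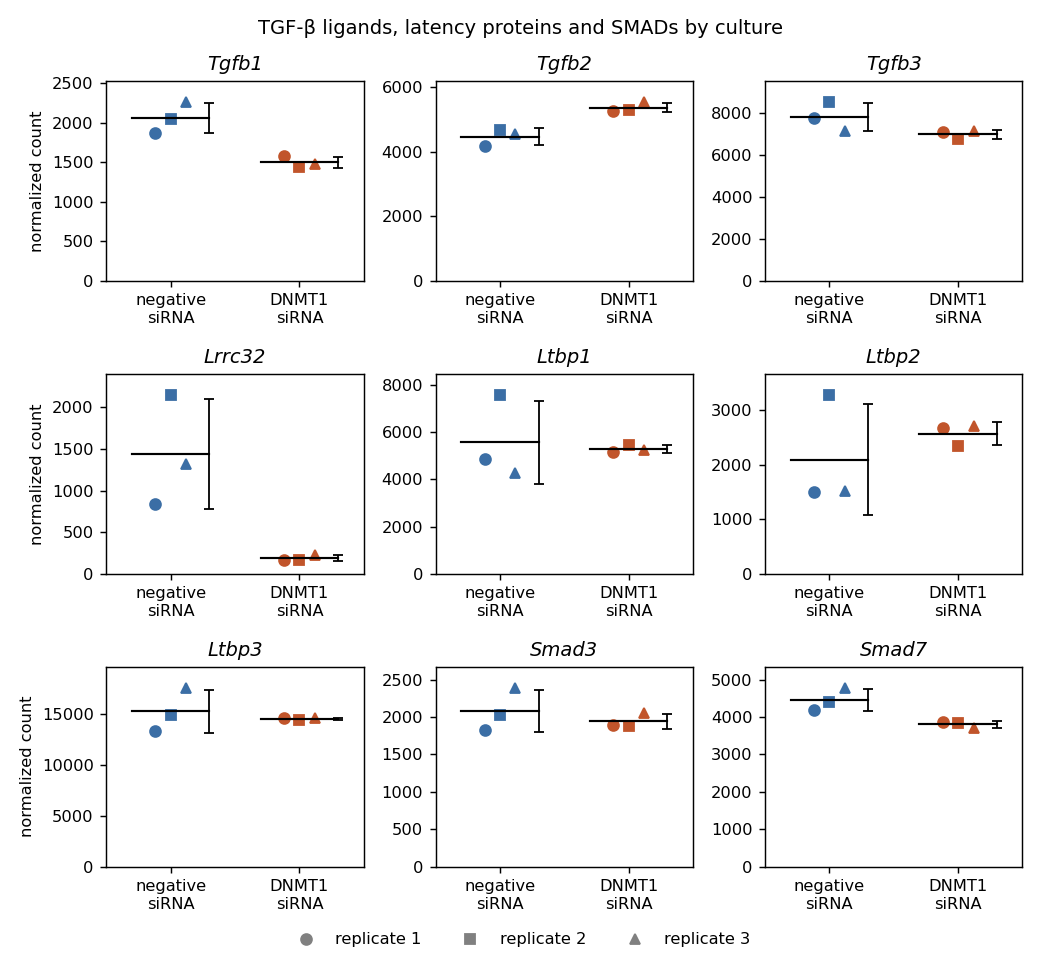
Normalized counts (y axis, linear, from 0, a scale for each gene) of the 9 genes in the 3 negative siRNA cultures (blue) and the 3 DNMT1 siRNA cultures (orange), with the mean as a line, the SD as a bar and the replicate number as the marker shape. Lrrc32 is at 836.2 or more in the controls and at 229.0 or less after knockdown, Tgfb2 is higher in all 3 knockdown cultures, and the control cultures of Lrrc32, Ltbp1 and Ltbp2 are widely spread with replicate 2 on top.

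The ligand genes differed less, and not all in the same direction. Tgfb1 (ENSMUSG00000002603, chr7:25687002-25705077, plus strand), which encodes the ligand that GARP is best known to present, had normalized counts of 1873.2, 2047.4 and 2253.6 with negative siRNA and of 1571.6, 1441.6 and 1480.1 with DNMT1 siRNA. Every knockdown culture lay below every control culture. Its means were 2058.1 ± 190.4 and 1497.8 ± 66.77 (SD, n = 3), a log2 fold change of -0.46 (SE 0.08), and the knockdown mean was 72.8% of the control.

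Tgfb2 (ENSMUSG00000039239, chr1:186622792-186705989, minus strand), the isoform whose loss in mice is known to disturb heart development, went the other way. Its normalized counts were 4174.7, 4686.3 and 4562.3 with negative siRNA and 5286.0, 5314.5 and 5536.1 with DNMT1 siRNA. All 3 knockdown cultures were higher than all 3 controls. The means were 4474.4 ± 266.9 and 5378.9 ± 136.9 (SD, n = 3), a log2 fold change of 0.27 (SE 0.07).

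Tgfb3 (ENSMUSG00000021253, chr12:86056745-86079041, minus strand) encodes the third ligand, known for its role in closure of the palate. It had normalized counts of 7741.4, 8487.4 and 7141.7 with negative siRNA and of 7092.2, 6735.7 and 7107.9 with DNMT1 siRNA. The groups only just failed to overlap, with 7141.7 as the lowest control value and 7107.9 as the highest knockdown value. The log2 fold change was -0.16 (SE 0.08), and it was -0.09 without negative siRNA replicate 2.

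Taken per length, Tgfb3 was the most abundant ligand transcript in both groups. It made up 66.05% ± 2.56 of the summed FPKM of the 3 ligands in the controls and 62.72% ± 0.402 after DNMT1 siRNA (SD, n = 3). The share of Tgfb1 was 11.75% ± 1.39 and 9.032% ± 0.32, and that of Tgfb2 was 22.2% ± 1.18 and 28.25% ± 0.667. The share of Tgfb2 was therefore larger in each knockdown culture (27.49% to 28.73%) than in any control (21.32% to 23.55%). The summed ligand level itself was 160.4 ± 9.63 FPKM in the controls and 151.5 ± 3.81 FPKM after DNMT1 siRNA. With the longest transcript as the gene length, Tgfb1 made up 20.14% and 15.75%, its union of exons (5042 bases) being longer than that transcript (2573 bases), and Tgfb3 still made up most, 57.86% and 55.8%.

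**Figure D2:**
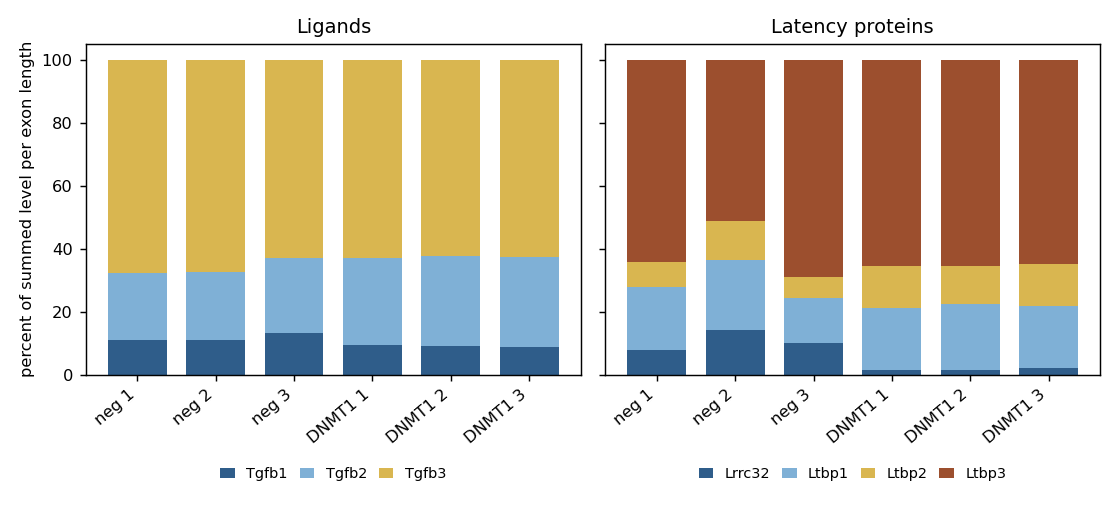
Share of each gene in the summed per-length level (y axis, percent of summed FPKM) of the 3 ligands (left) and of the 4 latency proteins (right), 1 bar per culture. On average the Tgfb2 share goes from 22.2% with negative siRNA to 28.25% with DNMT1 siRNA, and the Lrrc32 share from 10.71% to 1.627%.

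The LTBP genes, which encode the matrix anchors of latent TGF-β, overlapped between treatments. Ltbp1 (ENSMUSG00000001870, chr17:75005568-75392512, plus strand) had normalized counts of 4884.3, 7566.4 and 4269.9 with negative siRNA and of 5173.3, 5458.8 and 5227.0 with DNMT1 siRNA. Replicate 2 alone stood above the knockdown cultures, whereas the other 2 controls stood below them. The log2 fold change was -0.08 (SE 0.19), and it turned to 0.21 without replicate 2.

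Ltbp2 (ENSMUSG00000002020, chr12:84783212-84876532, minus strand), which belongs to the family but is known mainly as a microfibril protein that does not bind latent TGF-β, had normalized counts of 1505.6, 3277.2 and 1510.2 with negative siRNA and of 2677.9, 2340.9 and 2705.1 with DNMT1 siRNA. Here too replicate 2 was above and the other controls below all knockdown cultures. The log2 fold change was 0.30 (SE 0.28) and became 0.77 without replicate 2, the only one of 11 other fits in which Ltbp2 was past both limits.

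Ltbp3 (ENSMUSG00000024940, chr19:5740904-5758532, plus strand) was the most abundant latency gene, at 77.5 ± 10.7 FPKM in the controls and 73.7 ± 0.442 FPKM after DNMT1 siRNA (SD, n = 3). Its normalized counts were 13338.2, 14919.1 and 17526.9 against 14565.3, 14413.0 and 14562.4, and the knockdown values lay inside the control range. The log2 fold change was -0.07 (SE 0.10). Of the summed FPKM of the 4 latency genes, Ltbp3 made up 61.5% and 65.34%, and Lrrc32 made up 10.71% ± 3.27 and 1.627% ± 0.301.

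Both SMAD genes were close to their control levels. Smad3 (ENSMUSG00000032402, chr9:63646767-63757994, minus strand), which carries the signal to the nucleus, had normalized counts of 1824.8, 2024.0 and 2385.8 with negative siRNA and of 1896.1, 1874.5 and 2054.2 with DNMT1 siRNA. The knockdown cultures lay inside the control range, and the log2 fold change was -0.10 (SE 0.10). Smad7 (ENSMUSG00000025880, chr18:75367529-75395935, plus strand), an inhibitor that the signal itself induces, had normalized counts of 4185.8, 4413.3 and 4773.8 against 3874.0, 3830.6 and 3706.0. All knockdown cultures were lower, with means of 4457.6 ± 296.5 and 3803.5 ± 87.19 (SD, n = 3) and a log2 fold change of -0.23 (SE 0.07).

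Some of these genes share exon bases with a gene on the other strand, and the counting is not stated to have used strand. Tgfb2 shares 124 exon bases with Gm29491, Tgfb3 shares 163 with Gm37804, and Ltbp2 shares 764 with D030025P21Rik. These partners had at most 15 reads in any culture.

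**Figure D3:**
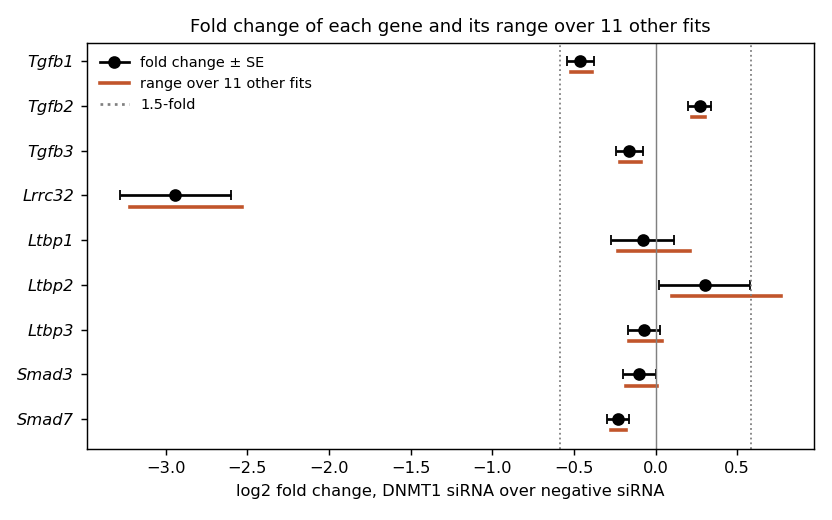
Log2 fold change of the 9 genes (DNMT1 siRNA over negative siRNA, x axis), with the SE as a bar, the range over 11 other fits as a line below it and the 1.5-fold limits dotted. Lrrc32 stands at -2.94, and the others lie between -0.46 and 0.30.

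Against the limits used across all genes, a change of more than 1.5-fold in either direction at an FDR under 0.05, 6.49% of the tested genes were past both (4.26% higher and 2.23% lower). Of the 9 genes, 0 were higher and 1, Lrrc32, was lower. At the FDR limit alone, 6.81% of all genes were higher and 5.65% lower, and of the 9 genes 1 was higher (Tgfb2) and 2 were lower (Tgfb1 and Lrrc32). Tgfb1 stayed under that limit in 9 and Tgfb2 in 4 of 11 other fits. All 3 knockdown cultures were above all controls for 18.3% of all genes and for Tgfb2, and below all controls for 17.7% of all genes and for Tgfb1, Tgfb3, Lrrc32 and Smad7. The median log2 fold change was -0.098 over the 9 genes and -0.005 over all genes tested. Since the 9 genes were chosen with this comparison known, nothing is read from these counts.

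The order of levels per length was similar at the top and changed at the bottom. With negative siRNA, Tgfb3 (106 FPKM), Ltbp3 (77.5), Smad7 (45.41) and Tgfb2 (35.58) followed each other without overlap. Below them, the neighbours Ltbp1 (24.01), Tgfb1 (18.8), Smad3 (17.27), Lrrc32 (14.09) and Ltbp2 (11.8 FPKM) did not differ beyond their spread. With DNMT1 siRNA, Tgfb2 (42.78 FPKM) was above Smad7 (38.75 FPKM), Ltbp2 (14.49 FPKM) and Tgfb1 (13.68 FPKM) overlapped, and Lrrc32 was last at 1.838 ± 0.358 FPKM, below every other gene in every culture.

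The spread between cultures was wider with negative siRNA for 9 of 9 genes, as it was for 72.0% of all genes tested. The coefficient of variation of Ltbp2 was 48.7% in the controls and 7.88% after DNMT1 siRNA. That of Lrrc32 was 46.1% and 19.5%, and that of Tgfb2 was 5.96% and 2.55%. Over all genes the median was 12.2% and 6.88%.

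The genes with the profile most like Lrrc32 over the 6 cultures were Crispld2, Col15a1, Slc7a3, Pgf and Lgi2. Likeness was the mean absolute difference of centred log2 values, and it was 0.235 for Crispld2, a secreted protein, 0.301 for Col15a1, a basement membrane collagen, 0.362 for Slc7a3, a cationic amino acid transporter, 0.38 for Pgf, a growth factor of the VEGF family, and 0.393 for Lgi2. All 5 were lower with DNMT1 siRNA and had their highest control value in replicate 2, as Lrrc32 did. That shape follows largely from the choice by likeness and is no separate result. With replicate 2 left out, Col15a1 went from a log2 fold change of -2.55 to -1.89 and Pgf from -2.34 to -1.64. Crispld2, for example, had normalized counts of 1767.6, 4511.9 and 1950.3 against 516.3, 400.8 and 536.4. The 8 other genes of the pathway set were farther away, from 1.195 for Tgfb1 to 1.62 for Ltbp2.

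**Figure D4:**
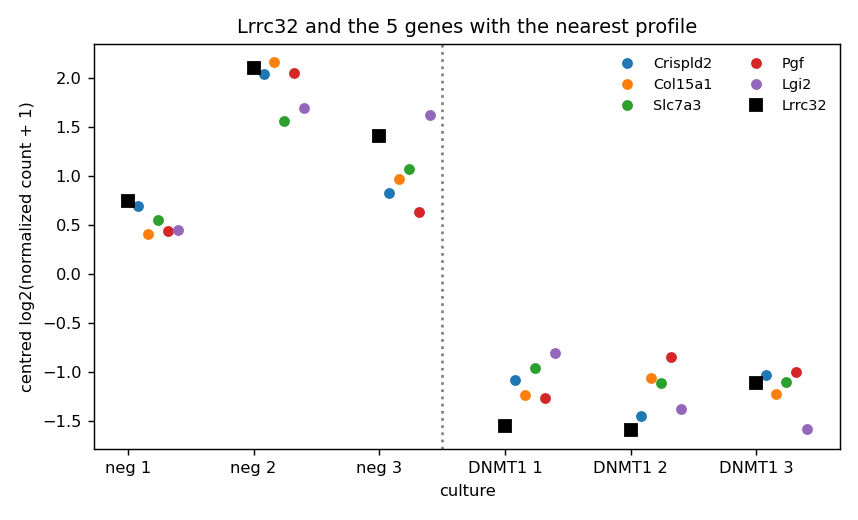
Log2 of the normalized count plus 1, centred on the mean of each gene (y axis), in the 6 cultures (x axis) for Lrrc32 (black squares) and the 5 genes with the nearest profile (circles). In all 6 genes negative siRNA replicate 2 is the highest culture and the 3 DNMT1 siRNA cultures are the lowest. The 5 genes were chosen for likeness to Lrrc32, so that this shared shape follows largely from the choice.

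Other genes of the pathway, which were not among the 9, were then tested in 4 lists. For comparison, 4.26% of all tested genes were higher and 2.23% lower past both limits, and their median log2 fold change was -0.005. Of the 5 TGF-β receptor genes, 0 passed both limits, and the median log2 fold change was 0.197. Eng, the co-receptor endoglin and the most abundant of them per length, was 3850.5 ± 469.4 and 5247 ± 109.1 (SD, n = 3; log2 fold change 0.45, SE 0.09; adjusted p = 0.0185, edgeR quasi-likelihood test), past the FDR limit but not the fold change limit. Endothelial cells express Eng as well, and their marker sum was higher too, with Npr3 the marker that rose most and Tek lower. The same 0 calls were made with DESeq2 and with the exact test, and at an unadjusted p under 0.05 there was 1 receptor higher and 1 lower.

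Among 18 other genes of latency and activation, 2 rose and 2 fell, with a median log2 fold change of -0.079. Itgb6, the integrin subunit that releases latent TGF-β in epithelia, rose from 9.64 ± 1.265 to 35.9 ± 4.896 normalized counts (SD, n = 3; log2 fold change 1.89, SE 0.28; adjusted p = 0.00546, edgeR quasi-likelihood test), a low level in both groups. Fmod, a matrix proteoglycan that binds TGF-β, rose from 1990.2 ± 37.06 to 3646.1 ± 219 (0.87, SE 0.07; adjusted p = 0.000615, edgeR). Of the related proteoglycan genes in the list, Aspn and Dcn fell, while Bgn stood at a log2 fold change of -0.21 (adjusted p = 0.145, edgeR). Aspn fell from 674.4 ± 433.9 to 189.11 ± 5.152 (-1.83, SE 0.40; adjusted p = 0.0238, edgeR), with replicate 2 the highest of the controls, and by 1.16 on the log2 scale without that culture. Dcn fell from 6650.1 ± 934.9 to 4264.2 ± 374.6 (-0.64, SE 0.11; adjusted p = 0.0115, edgeR). Dcn is also 1 of the fibroblast markers. Of the lower genes, 0 were called without DNMT1 siRNA replicate 2 or without replicate 3, and 1 was called without DNMT1 siRNA replicate 1 or without negative siRNA replicate 3. The fold changes without DNMT1 siRNA replicates 2 and 3 were -1.85 and -1.83 for Aspn and -0.57 and -0.68 for Dcn, and in the same fits the lower calls over all genes went from 345 to 112 and 145. Thbs1, an activator and the most abundant of the list, differed by 0.25 on the log2 scale (SE 0.14; adjusted p = 0.271, edgeR).

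Among 18 other SMADs and regulators, 1 rose and 0 fell, with a median log2 fold change of -0.153. Smad6, the other inhibitory SMAD, rose from 3923.5 ± 427.4 to 6026.4 ± 267.5 normalized counts (SD, n = 3; log2 fold change 0.62, SE 0.09; adjusted p = 0.00489, edgeR quasi-likelihood test), while Smad7 stood at -0.23. At an unadjusted p under 0.05 there were 8 lower genes, and DESeq2 and the exact test called 0 of them but 2 higher ones, Smad9 being the added gene, named after its value was seen (0.67, SE 0.19; adjusted p = 0.0557, edgeR). Smad6 lost its call without negative siRNA replicate 2 (0.54) and without DNMT1 siRNA replicate 1 (0.57). Ski, a repressor of SMAD signalling and the most abundant of the list, stood at a log2 value of -0.10 relative to the control (SE 0.07; adjusted p = 0.408, edgeR).

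Among 19 genes known as targets of TGF-β, 0 rose and 5 fell, with a median log2 fold change of -0.207. Over all tested genes 4.26% rose and 2.23% fell, with a median of -0.005. DESeq2 and the exact test also called 0 higher, and 1 was higher at an unadjusted p under 0.05. Timp1, an inhibitor of matrix proteases, fell from 3542.7 ± 1111 to 1737 ± 120.6 normalized counts (SD, n = 3; log2 fold change -1.03, SE 0.21; adjusted p = 0.0176, edgeR quasi-likelihood test). Tgfbi, a matrix protein named for its induction by TGF-β, fell by 0.71 on the log2 scale (SE 0.17; adjusted p = 0.0331, edgeR). The collagen I genes Col1a2 and Col1a1 fell by 0.69 (SE 0.18; adjusted p = 0.0394) and 0.65 (SE 0.16; adjusted p = 0.0376, edgeR). Snai1, a transcription factor of the epithelial to mesenchymal transition that was named after its value was seen, fell by 0.62 (SE 0.11; adjusted p = 0.0112, edgeR).

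Without negative siRNA replicate 2, Timp1 was the 1 target gene still called, at -0.80, and the log2 fold changes of Tgfbi, Col1a2, Col1a1 and Snai1 were -0.46, -0.44, -0.42 and -0.50. Without any one of the 3 DNMT1 siRNA cultures 0 were called, while the fold changes were close to those with all cultures, from -1.11 to -0.99 for Timp1 and from -0.69 to -0.64 for Col1a1. Lower calls over all genes went from 345 to 146, 112 and 145 in those fits. Col1a1 and Col1a2 are also on the fibroblast list and make up most of its sum, so that this sum is no separate measure beside them. Ccn2, a classic target that was named after its value was seen, differed by 0.34 on the log2 scale (SE 0.11; adjusted p = 0.0828, edgeR quasi-likelihood test).

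**Figure D5:**
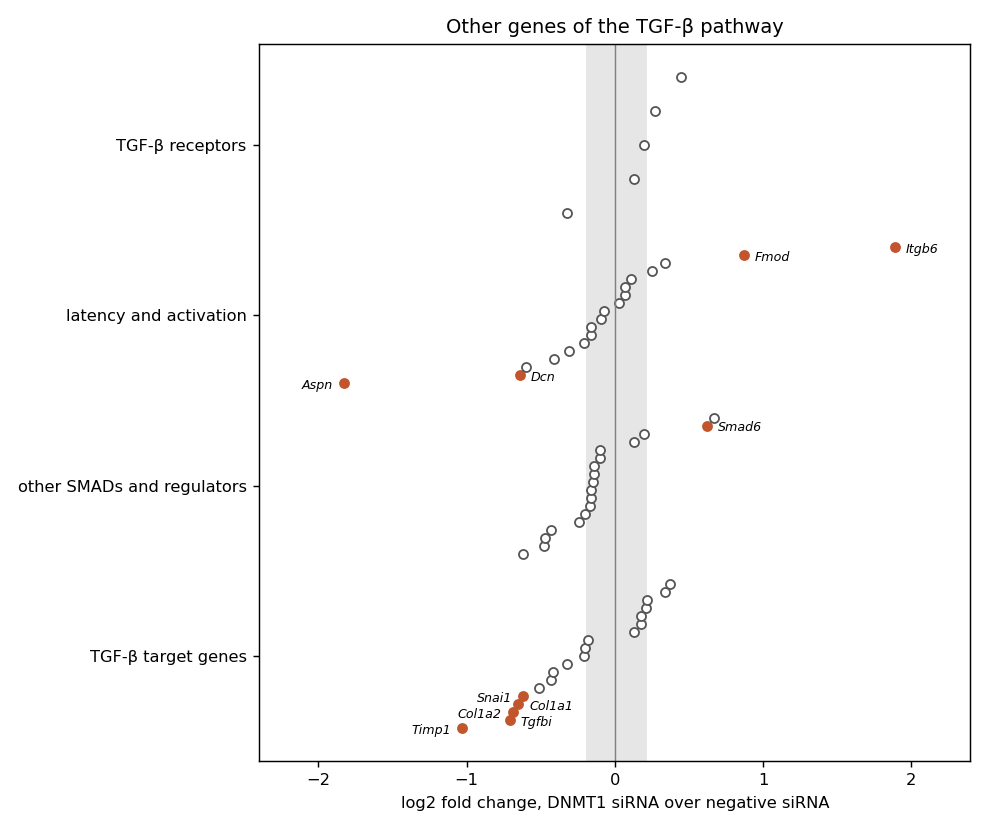
Log2 fold change (x axis) of each other gene of the pathway, by list, with genes past both limits filled and named and the rest open. The grey band spans the quartiles of all 15470 tested genes, from -0.19 to 0.21. The named target genes all lie below it, which follows from the 1.5-fold limit for naming a lower gene.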

How the data were processed

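The deposited values are raw counts of reads per Ensembl gene, 1 file per culture, which the authors made with TopHat2 (mouse build mm10) and HTSeq and did not normalize. No strand setting is given in the sources used here. Reads that HTSeq gave to no gene were left out of library sizes. The test was the quasi-likelihood F test of edgeR 4.0.16 in R 4.3.3 (TMM, filterByExpr with a minimum count of 10, no block), with Benjamini-Hochberg adjustment over 15470 genes. The SE was derived from the log2 fold change and its F statistic. Per-length values (FPKM) used the union of exons of GENCODE vM21 (GRCm38), which holds 42548 of the 43629 gene IDs. DESeq2 1.42.0, edgeR's exact test, RLE normalization, no filter, a replicate block and leaving out each culture were alternatives. The pipeline was tested on simulated data. The 9 genes and the gene lists were chosen with earlier results of these data known.

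Named beside the 9 genes were, in each list, at most 4 called genes in each direction and the gene with the highest per-length level, the 5 genes nearest to Lrrc32 among protein-coding genes whose average log2 CPM exceeded 1, and Dnmt1, Dnmt3a, Dnmt3b and Vcam1 as checks. Dnmt3b differed by 0.21 on the log2 scale (adjusted p = 0.444). Snai1, Smad9, Ccn2 and Bgn were added after their values were seen. Some items are not reported here. Totals of reads outside exons and on several genes were read from the same files. Depth limits the precision of low counts, such as those of Itgb6, more than those of the 9 genes.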

Additional observations from a re-analysis of the deposited data

Results flagged for a closer look

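Reads that the counter gave to no single gene were not part of the comparisons and were more frequent with DNMT1 siRNA than in any control culture. Reads outside annotated exons made up 24.405%, 31.49% and 31.952% in DNMT1 siRNA replicates 1, 2 and 3, and at most 17.511% with negative siRNA. Reads on more than one gene made up 6.018%, 6.093% and 6.351% in the same cultures, and at most 3.649% with negative siRNA. Their part in the differences of the 9 genes was not tested.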

How the results depend on the processing

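Over 34 named genes, 334 of the fitted values under other settings kept their direction and their side of the limits, 32 lost a call, 5 gained one (4 of them for Smad9 and 1 for Ltbp2) and 3 turned in sign. The 3 were Ltbp1 (0.21 without negative siRNA replicate 2, with a range of -0.23 to 0.21 on leaving out each culture), Ltbp3 (0.04, range -0.16 to 0.04) and Smad3 (0.01, range -0.18 to 0.01), the last 2 without negative siRNA replicate 3. Over all genes, 994 were higher and 701 lower with no filter, which also moved the median log2 fold change of all genes to 0.113, and 1054 and 874 with no limit on fold change. Leaving out each culture gave 255 to 823 higher and 112 to 472 lower. With no limit on fold change, 1 of the 9 genes was higher and 2 were lower, 1 receptor was higher, 4 latency genes and 2 other SMADs and regulators were lower. Leaving out each culture gave 0 to 1 of the 9 genes higher, 0 to 2 latency genes lower, 0 to 2 other SMADs and regulators higher and 0 to 1 lower, and 0 to 7 target genes lower. Other SMADs and regulators had 2 higher with DESeq2, with the exact test and with no filter. Ligand shares with the longest transcript moved to 20.14% and 15.75% for Tgfb1 and to 57.86% and 55.8% for Tgfb3. Only the gene lengths differ in that setting, 5042 against 2573 bases for Tgfb1 and 3383 in both for Tgfb3. The cause of the other moves was not tested. Without Col1a1 and Col1a2, an alternative chosen after seeing the data, the mean fibroblast marker sum was 235.5 FPKM with negative siRNA and 180.9 with DNMT1 siRNA.

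Cultures of equal number did not visibly deviate together (correlations of 0.0064, -0.0208 and 0.0274 across genes). Those of unlike number gave -0.0764 to 0.065. With 3 cultures per group, this check cannot exclude that the numbers pair them. With a replicate block, 513 genes were higher, 285 were lower and 3 target genes were lower. The smallest p that 3 cultures against 3 allow in an exact permutation test is 0.1.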
